A study of Homo sapiens with 4 samples.

Results

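Aminoacyl-tRNA synthetases were followed in OMM2.3 cells given the uncoupler CCCP, DHA or both. The family was taken as the 36 genes whose symbols name a synthetase in the deposited tables, of 58735 genes in all. They comprise 20 cytosolic genes and 16 mitochondrial genes, whose symbols end in 2. OMM2.3 is an established line from a uveal melanoma metastasis, and RNA sequencing gave 1 library in each of 4 groups, which were cells given CCCP and DHA together, DHA alone, CCCP alone, and control cells. CCCP, carbonyl cyanide m-chlorophenyl hydrazone, carries protons across the inner mitochondrial membrane and collapses its potential. DHA is not expanded in the labels, and the sources used here give neither dose nor time nor what control cells received. All groups were grown with fetal bovine serum and antibiotics. Because each group has 1 library, the spread between replicates is unknown. The 95% ranges in parentheses after folds are exact binomial bounds on read counts and reflect counting error only.

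Each synthetase joins 1 kind of amino acid to its transfer RNAs, the step that sets which residue a codon receives. Animal cells keep a cytosolic set for nuclear-encoded mRNAs and a separate nuclear-encoded set that is imported into mitochondria, and a part of the cytosolic enzymes is held in a multisynthetase complex on scaffold proteins. Uncharged transfer RNA activates the kinase GCN2, and several cytosolic synthetase genes are known targets of the transcription factor ATF4, which is made when the initiation factor eIF2 is phosphorylated in the integrated stress response.

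The libraries held 16900411 to 18937286 reads over genes. Synthetases were well covered, with 594 to 10392 reads for each cytosolic gene in each library and 93 to 2994 for the 15 mitochondrial genes that reached 1 FPKM (fragments per kilobase, adjusted for library size) in at least 1 library. SARS2, the remaining one, had 21 to 47 reads. Of 10 melanocyte markers, 3 (PMEL, MITF and GPNMB) reached 1 FPKM, and TYR and PAX3 were at 0 in all 4 libraries. Of 6 leukocyte and 4 endothelial markers none reached 1 FPKM. The 10 melanocyte markers summed to 29.8 FPKM with both compounds, 36.4 with DHA, 44.7 with CCCP and 45.5 in control. The 5 fibroblast markers summed to 8.97 FPKM with both compounds, 18.5 with DHA, 20.3 with CCCP and 32.4 in control. The 5 epithelial markers summed to 267, 344, 298 and 375 FPKM in the same order. Only 3 fibroblast and 2 epithelial markers reached 1 FPKM in any library. All 3 sums were lowest with both compounds and highest in control, and their part in the results was not tested. Fewer cells of a type and less RNA per cell cannot be told apart in such libraries.

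Cytosolic and mitochondrial synthetase mRNAs parted with treatment. Summed over the 20 cytosolic genes the level was 1023 FPKM with both compounds, 684 with DHA, 468 with CCCP and 447 in control. The 16 mitochondrial genes summed to 126, 124, 125 and 121 FPKM in the same order. The cytosolic sum was thus 8.15 times the mitochondrial sum with both compounds, 5.54 times with DHA, 3.74 times with CCCP and 3.7 times in control. Of the cytosolic genes, 17 had their highest level with both compounds, and in 16 the level with both lay above that with DHA, which lay above those with CCCP and in control. Over all 13678 genes that reached 1 FPKM in any library, 33.8% were highest with both compounds and 14.7% had that order. Of the 15 measured mitochondrial genes, 5 were highest with both compounds and 3 showed that order.

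**Figure D1:**
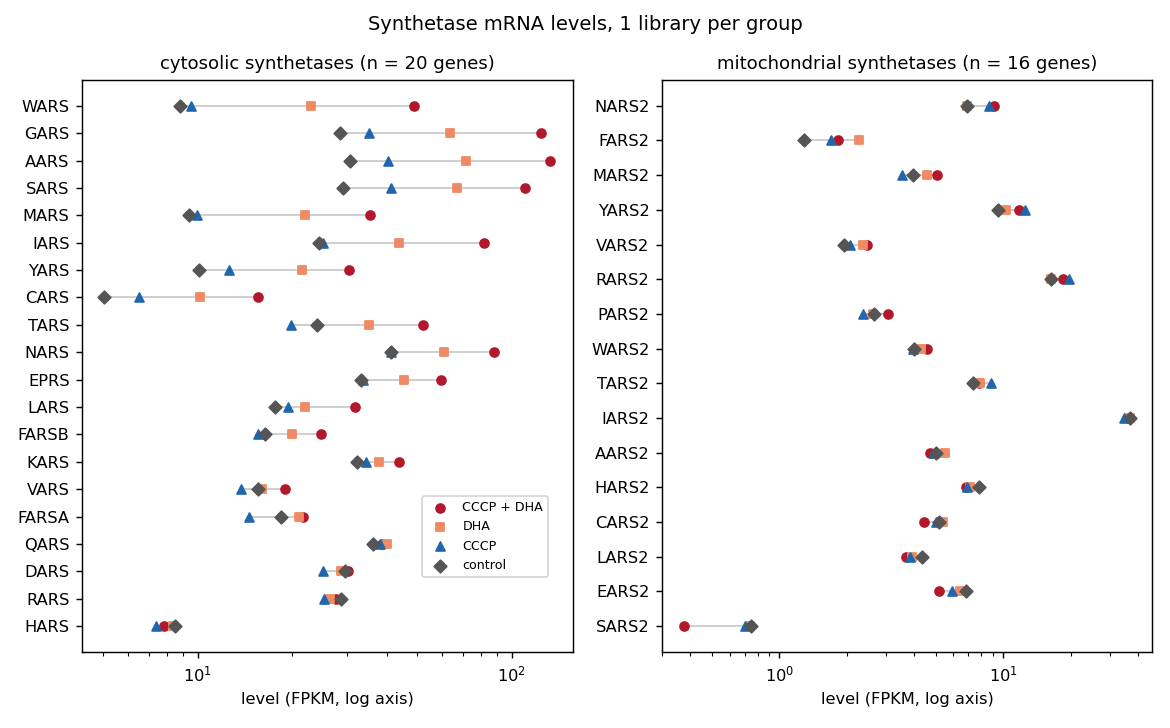
Level of each synthetase in each of the 4 libraries (FPKM, log axis), with genes ordered by the ratio of CCCP plus DHA over control. Points for CCCP plus DHA and for DHA lie to the right of control for the upper cytosolic genes, whereas those of most mitochondrial genes lie close together.

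At the control level, NARS (asparagine), IARS2 (mitochondrial isoleucine) and QARS (glutamine) were the 3 most abundant members. NARS stood at 87.9 FPKM with both compounds, 60.9 with DHA, 41.2 with CCCP and 41.2 in control. IARS2 stood at 36.1, 36.9, 34.8 and 36.9 FPKM, and QARS at 38.7, 40.0, 38.0 and 36.2 FPKM, in the same order of groups. IARS2 and QARS lay close to each other and varied little over the 4 libraries. The 3 least abundant members in control were mitochondrial: SARS2 (serine) with 0.377, 0.736, 0.704 and 0.747 FPKM, FARS2 (phenylalanine) with 1.83, 2.28, 1.7 and 1.3 FPKM, and VARS2 (valine) with 2.46, 2.36, 2.07 and 1.94 FPKM. With both compounds the most abundant members were instead AARS, GARS and SARS.

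Set against control, the combination gave the largest cytosolic response. On log2(FPKM + 0.5), 10 of 20 cytosolic genes were at least 2-fold higher and none was 2-fold lower, where 4.52% of the 13678 genes that reached 1 FPKM in any library were at least 2-fold higher and 5.44% lower. The median log2 ratio was 0.96 over the cytosolic genes, 0.16 over the 15 mitochondrial genes and 0.0087 over all genes measured. No mitochondrial gene was 2-fold higher or lower. Counting intervals lay above 1 for 17 cytosolic genes and below 1 for 1, HARS, where those of 30.8% of all genes lay above 1 and 29.3% below.

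WARS, the tryptophan enzyme, which is also induced by interferon gamma in many cells, had the largest ratio. It stood at 48.8 FPKM with both compounds, 23.0 with DHA, 9.5 with CCCP and 8.82 in control, which made it 5.54-fold (5.19 to 5.91) higher with both than in control. The library with both compounds was the highest, that with DHA the next, and those with CCCP and control lay close together. WARS shares 10.6% of its exon length with other genes, foremost WDR25, which reached at most 2.51 FPKM. AARS, the alanine enzyme, stood at 133, 71.4, 40.3 and 30.5 FPKM in the same order, a 4.35-fold (4.17 to 4.54) higher level with both. GARS, whose single gene supplies glycine charging to cytosol and mitochondria, stood at 124, 63.7, 35.1 and 28.4 FPKM, 4.35-fold (4.16 to 4.56) higher with both. In AARS and GARS all 4 libraries were apart, with CCCP between DHA and control.

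SARS charges transfer RNAs for serine and for selenocysteine. Its level was 110 FPKM with both compounds, 67.1 with DHA, 41.4 with CCCP and 29.1 in control, 3.79-fold (3.61 to 3.98) higher with both. MARS, the methionine enzyme, which also supplies the initiator transfer RNA, stood at 35.5, 21.9, 9.98 and 9.4 FPKM, 3.78-fold (3.55 to 4.02) higher. Exons of MARS share 13.3% of their length with exons of other genes, foremost DDIT3 on the opposite strand, which encodes the stress factor CHOP and had 1420 reads with both compounds, 286 with DHA, 161 with CCCP and 140 in control. MARS itself had 4305, 2652, 1172 and 1286 reads in these libraries. As named, the kit keeps no record of strand, and the part of DDIT3 reads in the MARS level was not tested. With both compounds MARS had 4305 reads and all of DDIT3 had 1420, and with DHA they had 2652 and 286.

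The isoleucine enzyme IARS stood at 81.4 FPKM with both compounds, 43.8 with DHA, 25.0 with CCCP and 24.3 in control, 3.35-fold (3.23 to 3.49) higher with both. CARS, the cysteine enzyme, stood at 15.6, 10.2, 6.51 and 5.06 FPKM, 3.09-fold (2.87 to 3.33) higher, and YARS, the tyrosine enzyme, at 30.4, 21.4, 12.6 and 10.1 FPKM, 3.0-fold (2.84 to 3.18) higher. IARS had nearly equal levels with CCCP and in control, while CARS and YARS were somewhat higher with CCCP. TARS, for threonine, stood at 52.2 FPKM with both, 35.0 with DHA, 19.8 with CCCP and 24.1 in control, 2.17-fold (2.07 to 2.28) higher with both. NARS, given above, was 2.14-fold (2.05 to 2.23) higher, with nearly equal levels in the CCCP and control libraries.

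The other 10 cytosolic genes had log2 ratios of -0.11 to 0.84 with both compounds. EPRS stood at 59.6 FPKM with both, 45.5 with DHA, 33.5 with CCCP and 33.1 in control, and LARS at 31.6, 21.9, 19.4 and 17.7 FPKM. Both followed the order of the more responsive genes at a smaller size. The upper end was formed by EPRS, the fused glutamate and proline enzyme, at 0.84, by LARS, the leucine enzyme, which also takes part in leucine sensing by mTORC1, at 0.82, and by FARSB, the beta subunit of the phenylalanine enzyme, at 0.58. FARSA, the alpha subunit of the same enzyme, was at 0.23. FARSB stood at 24.8, 20.0, 15.6 and 16.4 FPKM and FARSA at 21.7, 21.1, 14.6 and 18.4 FPKM in the same order of groups, both lowest with CCCP. KARS, which like GARS serves both compartments from 1 gene, stood at 43.7 FPKM with both compounds, 37.8 with DHA, 34.4 with CCCP and 32.2 in control, a 1.36-fold (1.29 to 1.43) higher level with both. VARS was at 0.28, QARS at 0.10, DARS (aspartate) at 0.04, RARS (arginine) at -0.05 and HARS (histidine) at -0.11, on the same log2 scale. DARS stood at 30.2 FPKM with both, 28.6 with DHA, 25.1 with CCCP and 29.4 in control, RARS at 27.5, 26.4, 25.2 and 28.5 FPKM, and HARS at 7.81, 8.37, 7.39 and 8.49 FPKM. In these 3 genes and in VARS, at 19.0, 16.1, 13.7 and 15.6 FPKM, the CCCP library was the lowest. Both genes that serve the 2 compartments thus lay above control with both compounds, GARS by far the more.

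**Figure D2:**
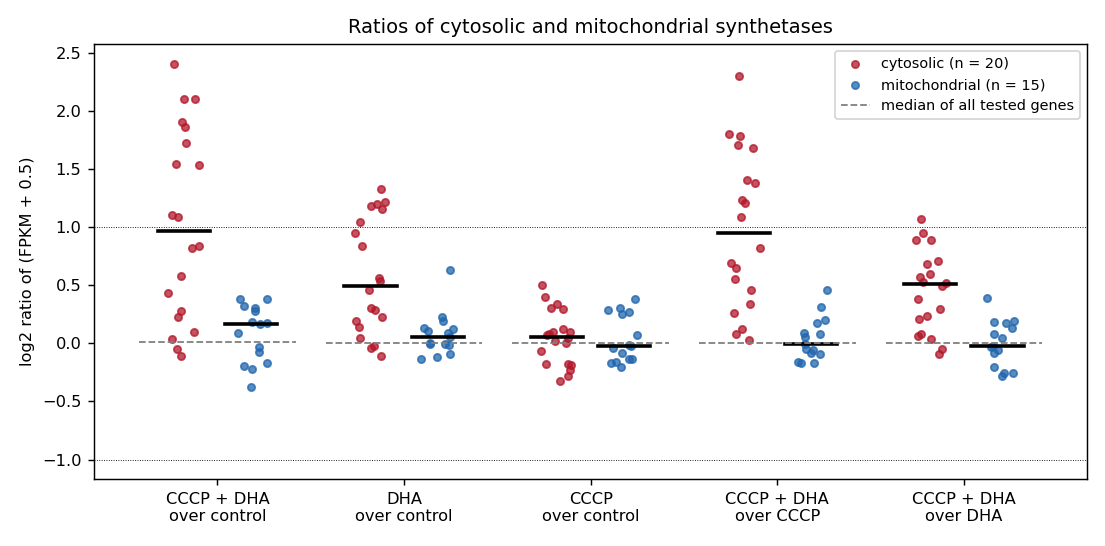
Log2 ratio of (FPKM + 0.5) for each cytosolic (red, n = 20 genes) and mitochondrial (blue, n = 15 genes) synthetase in the 5 comparisons of 2 libraries. Black bars are medians of each set, grey dashes the median of all 13678 genes and dotted lines 2-fold, and cytosolic medians are 0.96, 0.50 and 0.06 for CCCP plus DHA, DHA and CCCP over control, and the last turns to -0.053 with libraries scaled to equal totals.

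Several promoters of these genes hold the core of the element at which ATF4 binds with C/EBP partners. The letters TGATGNAA, which read TTNCATCA on the other strand, were searched on both strands from 250 bases before to 50 bases after each RefSeq gene start (GRCh38.p14). A window was on hand for 16 of 20 cytosolic genes (all but DARS, LARS, VARS and YARS) and for 14 of 16 mitochondrial genes (all but AARS2 and VARS2). The motif was found in 7 of 16 cytosolic and 1 of 14 mitochondrial genes, against 3.62% of all 35116 windows, 4.46% of the 27305 genes in the table and 2.51% of the genes that were measured here and have a window. Some genes have more than 1 window, and a gene was counted once if any window held the motif. The 7 cytosolic genes are shown as 60 bases on the gene's own strand, with the motif in capitals, because the genes that hold it are among those highest above control. Their motifs begin between 187 bases before the RefSeq start and base 15 after it.
AARS (chr16:70289660-70289719, minus strand): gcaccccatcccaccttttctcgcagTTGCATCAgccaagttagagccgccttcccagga
CARS (chr11:3057392-3057451, minus strand): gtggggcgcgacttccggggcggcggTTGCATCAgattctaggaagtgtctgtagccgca
GARS (chr7:30594819-30594878, plus strand): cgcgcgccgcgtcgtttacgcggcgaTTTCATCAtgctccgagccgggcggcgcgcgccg
IARS (chr9:92293677-92293736, minus strand): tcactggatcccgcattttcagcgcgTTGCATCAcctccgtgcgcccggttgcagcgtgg
MARS (chr12:57488038-57488097, plus strand): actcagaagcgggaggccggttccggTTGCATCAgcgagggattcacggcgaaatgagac
NARS (chr18:57621789-57621848, minus strand): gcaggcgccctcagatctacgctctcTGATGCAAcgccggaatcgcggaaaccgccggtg
TARS (chr5:33440941-33441000, plus strand): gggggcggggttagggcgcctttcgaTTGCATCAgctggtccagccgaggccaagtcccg

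Of these, 6 read TTNCATCA along the gene and NARS reads TGATGNAA. The complete 8 letters are the same in AARS, CARS, IARS, MARS and TARS. The motif began 187 bases before the start in AARS, 33 in GARS, 13 in IARS, 4 in MARS and 2 in CARS, and at bases 3 and 15 after it in TARS and NARS. CARS, GARS and TARS have 2 windows each, of which 1 held the motif. Their distances are to the gene start of that window. All 7 were among the 10 genes at least 2-fold higher with both compounds, of which 9 had a window, and SARS and WARS were the 2 without a match. None of the 7 other cytosolic genes with a window (EPRS, FARSA, FARSB, HARS, KARS, QARS and RARS) held it. The mitochondrial gene with a match was YARS2, shown because it stayed under 2-fold against control. It was 1.24-fold (1.08 to 1.43) higher with both compounds and 1.32-fold (1.15 to 1.51) higher with CCCP. Its motif began 197 bases before the start.
YARS2 (chr12:32756061-32756120, minus strand): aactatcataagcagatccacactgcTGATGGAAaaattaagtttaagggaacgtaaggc

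These matches are descriptions of sequence. Binding was not measured.

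With DHA alone, the cytosolic set was already higher than in control. The median log2 ratio was 0.50 over the cytosolic genes and 0.05 over the mitochondrial genes (-0.036 with libraries scaled to equal totals), and 6 of 20 cytosolic genes (AARS, GARS, MARS, SARS, WARS and YARS) were at least 2-fold higher, where 2.0% of all genes measured were higher and 1.86% lower. With equal totals YARS, at a log2 ratio of 0.95, was no longer among them, which left 5. WARS was 2.6-fold (2.42 to 2.8), AARS 2.34-fold (2.24 to 2.45) and MARS 2.33-fold (2.18 to 2.49) higher. SARS was 2.31-fold (2.19 to 2.43) higher, GARS 2.24-fold (2.13 to 2.36) and YARS 2.12-fold (1.99 to 2.25). CARS lay just short of the threshold, at a log2 ratio of 0.95 with the pseudocount and 2.02-fold (1.86 to 2.18) higher in FPKM. No cytosolic or mitochondrial gene was 2-fold lower. The lowest cytosolic ratio was that of RARS, at 0.927-fold (0.866 to 0.991) of control.

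With the uncoupler alone, the synthetases were near their control levels. No member of either set was 2-fold higher or lower, where 3.21% of all genes measured were higher and 2.32% lower. The median log2 ratio was 0.06 over the cytosolic genes, which turned to -0.053 with libraries scaled to equal totals, and -0.02 over the mitochondrial genes, which turned to 0.11 when genes under a mean of 5 FPKM were left out. Cytosolic counting intervals lay above 1 in 7 of 20 genes and below 1 in 6, near the shares over all genes of 25.8% above and 25.8% below. SARS was 1.43-fold (1.35 to 1.51), AARS 1.32-fold (1.25 to 1.39) and CARS 1.29-fold (1.18 to 1.4) higher. FARSA, TARS and DARS were at 0.792-fold (0.712 to 0.88), 0.822-fold (0.774 to 0.872) and 0.852-fold (0.8 to 0.908) of control.

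DHA added to CCCP-treated cells was read from the combination against CCCP alone. Here 10 cytosolic genes were at least 2-fold higher, where 3.46% of all genes measured were higher and 4.94% lower. The median log2 ratio was 0.95 over the cytosolic genes and -0.0067 over the mitochondrial genes (0.069 with equal totals). This comparison shares no library with that of DHA against control. Across the 20 cytosolic genes the log2 ratios of the 2 comparisons had a Pearson r of 0.94 and a Spearman rho of 0.94, and 17 genes lay above 0 in both. Across the 15 mitochondrial genes r was 0.28 and rho 0.28, and across all genes measured they were 0.25 and 0.36. These are correlations across genes of the same libraries, which are not independent replicates, and mitochondrial genes rest on fewer reads.

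CCCP added to DHA-treated cells was read from the combination against DHA alone. The median log2 ratio was 0.51 over the cytosolic genes and -0.02 over the mitochondrial genes (0.046 with equal totals). WARS alone among the members was at least 2-fold higher, at 2.13-fold (2.03 to 2.23), where 3.27% of all genes measured were higher and 3.63% lower. GARS followed at 1.94-fold (1.87 to 2.01), and AARS and IARS each at 1.86-fold (1.8 to 1.92). Cytosolic counting intervals lay above 1 in 15 of 20 genes and below 1 in none, where those of 26.6% of all genes lay above 1 and 26.6% below.

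The combination exceeded the sum of the single compounds for most cytosolic genes. The departure from additivity, which is the log2 ratio of both compounds to control minus the sum of the log2 ratios of DHA and of CCCP, was above 0 in 19 of 20 cytosolic genes with a median of 0.37. It was above 0 in 7 of 15 mitochondrial genes, with a median of -0.03 (0.12 with equal totals, where that of all genes was 0.16), and in 49.7% of all genes measured, with a median of -0.0033. No test was possible, since the 4 libraries leave no residual for it. WARS departed by 0.97, TARS by 0.85, IARS by 0.84, GARS by 0.65 and MARS by 0.60. In TARS the single compounds pointed apart, at log2 ratios of 0.53 with DHA and -0.28 with CCCP, and the combination was at 1.10. YARS and SARS departed by 0.19 and 0.21 although both were at least 3-fold higher with both compounds. QARS was the cytosolic gene below 0, at -0.12.

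**Figure D3:**
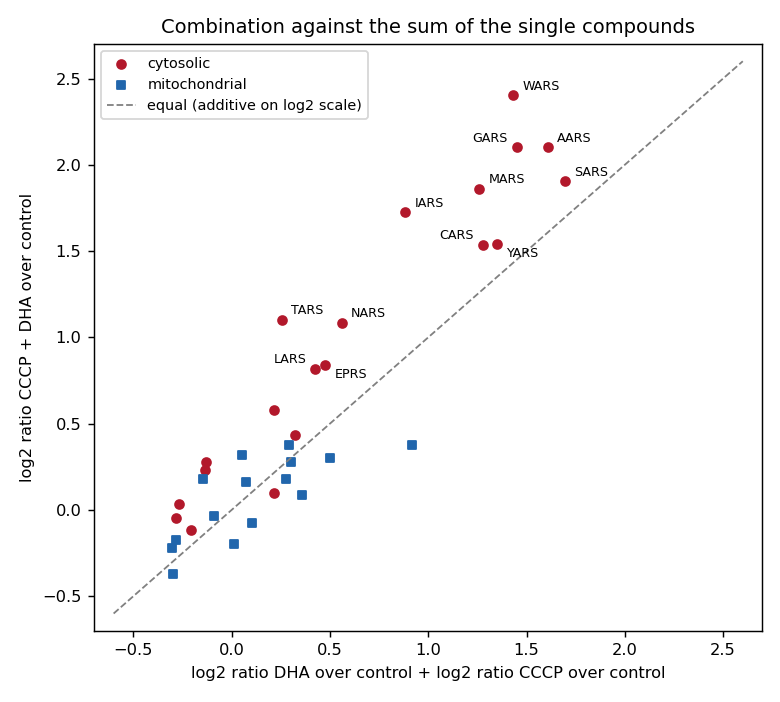
Log2 ratio of CCCP plus DHA over control against the sum of the log2 ratios of DHA and of CCCP over control, for 20 cytosolic (circles) and 15 mitochondrial (squares) synthetases. Points above the dashed line exceed the sum, as do 19 cytosolic and 7 mitochondrial genes, and all x and y values share the control library.

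The mitochondrial synthetases varied within a narrow range. With both compounds their log2 ratios to control ran from -0.37 to 0.38, with DHA from -0.14 to 0.63 and with CCCP from -0.21 to 0.38. With both compounds counting intervals lay above 1 in 6 genes (FARS2, MARS2, NARS2, RARS2, VARS2 and YARS2) and below 1 in 4 (CARS2, EARS2, HARS2 and LARS2), of 15 measured, beside 30.8% above and 29.3% below over all genes. The highest were FARS2 at 1.41-fold (1.11 to 1.81) and NARS2, the asparagine enzyme, at 1.32-fold (1.16 to 1.51), and the lowest was EARS2, the glutamate enzyme, at 0.756-fold (0.675 to 0.847) of control. NARS2 stood at 9.13 FPKM with both compounds, 6.87 with DHA, 8.64 with CCCP and 6.91 in control, with both CCCP libraries above the 2 others. RARS2 had the same layout, at 18.5, 16.4, 19.7 and 16.3 FPKM, as had YARS2, at 11.8, 10.3, 12.5 and 9.45 FPKM. EARS2 stood at 5.19, 6.4, 5.88 and 6.86 FPKM, lowest with both, and LARS2, the leucine enzyme, at 3.67, 3.92, 3.82 and 4.36 FPKM, highest in control. The methionine enzyme MARS2 stood at 5.05, 4.58, 3.55 and 3.95 FPKM, with both DHA libraries above the 2 others, the reverse layout to NARS2. PARS2 (proline) at 3.06, 2.62, 2.37 and 2.65 FPKM, WARS2 (tryptophan) at 4.55, 4.28, 3.97 and 4.01 FPKM and TARS2 at 7.8, 7.91, 8.82 and 7.32 FPKM differed little between libraries, as did AARS2, CARS2 and HARS2, between 4.43 and 7.78 FPKM.

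With CCCP alone, counting intervals of the mitochondrial genes lay above 1 in 5 (FARS2, NARS2, RARS2, TARS2 and YARS2) and below 1 in 3 (EARS2, IARS2 and LARS2), beside 25.8% above and 25.8% below over all genes. YARS2 (tyrosine) stood at 12.5 FPKM with CCCP against 9.45 in control, 1.32-fold (1.15 to 1.51) higher. NARS2 was 1.25-fold (1.09 to 1.43), and RARS2 (arginine) and TARS2 (threonine) were each 1.21-fold higher with CCCP, with intervals of 1.1 to 1.34 and 1.07 to 1.35. With DHA the intervals of FARS2, at 1.76-fold (1.39 to 2.23), and VARS2, at 1.21-fold (1.04 to 1.42), lay above 1, and those of the other 13 measured genes included 1, beside 18.1% above and 17.2% below over all genes. FARS2 rested on 190 reads with DHA and 122 in control. SARS2, below the level filter, had 21 reads with both compounds, 41 with DHA, 38 with CCCP and 47 in control, and 57% of its exon length overlaps other genes, among them the mitochondrial ribosomal protein gene MRPS12.

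Set side by side for the same amino acid, 13 cytosolic genes have a mitochondrial partner of the same symbol. With both compounds against control the cytosolic log2 ratio was the higher in 12 of 13 pairs, by a median of 1.24, and by at least 1 in 9 pairs. The widest gaps were 2.41 between SARS and SARS2, 2.24 between WARS and WARS2 and 2.18 between AARS and AARS2. RARS and RARS2 had the order turned round, at -0.05 and 0.18, and the gap was 0.06 for the HARS pair and 0.0025 for the VARS pair. HARS and HARS2 lie head to head and share exon bases, so that a part of their reads cannot be told apart. The cytosolic ratio was the higher in 11 of 13 pairs with DHA and in 7 of 13 with CCCP. In levels, AARS was 28.0 times AARS2 with both compounds and 6.09 times in control, and IARS was 2.25 times IARS2 with both and 0.66 times IARS2 in control.

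**Figure D4:**
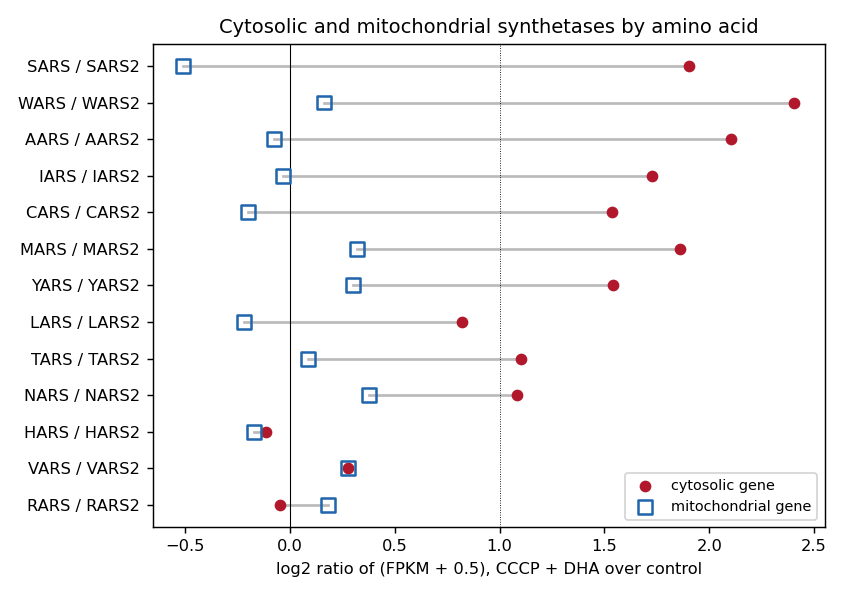
Log2 ratio of (FPKM + 0.5), CCCP plus DHA over control, for the 13 amino acids with a cytosolic (filled circle) and a mitochondrial (open square) synthetase of the same symbol. Rows are ordered by the gap, which is widest for SARS and SARS2 (2.41), and SARS2 lies under 1 FPKM in all 4 libraries.

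The cytosolic set divides into members of the multisynthetase complex and free enzymes. Of the 8 complex members (DARS, EPRS, IARS, KARS, LARS, MARS, QARS and RARS) 2, IARS and MARS, were at least 2-fold higher with both compounds, with a median log2 ratio of 0.63. Of the 12 free enzymes 8 were, with a median of 1.32. Over all genes measured, 4.52% were at least 2-fold higher with both compounds and 5.44% lower. At 1.5-fold the counts were 4 of 8 and 8 of 12, and the difference between the groups was not tested. The share of all genes past 1.5-fold was not computed. With DHA, 1 of 8 complex members and 5 of 12 free enzymes were at least 2-fold higher, with medians of 0.26 and 0.75. The share over all genes measured was 2.0% higher and 1.86% lower with DHA. Summed levels of the complex members were 348 FPKM with both, 266 with DHA, 211 with CCCP and 211 in control, and those of the free enzymes 675, 418, 258 and 236 FPKM. The scaffold genes of the complex lay below the median of its members with both compounds, at log2 ratios of 0.57 for AIMP1, 0.43 for AIMP2 and 0.42 for EEF1E1. AIMP2 stood at 9.27 FPKM with both compounds, 7.39 with DHA, 4.04 with CCCP and 6.76 in control, lowest with CCCP. By catalytic fold, 5 of 9 class I genes and 5 of 10 class II genes were at least 2-fold higher with both. EPRS, which holds a domain of each class, was left out of that count.

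Since 2 libraries received DHA and 2 received CCCP, an additive limma-trend fit over all 13678 genes tested the effect of each, with 1 residual degree of freedom, so that the spread is the departure from additivity itself. No synthetase passed an adjusted p of 0.05 for DHA or for CCCP. The fit called 0.095% of all genes as risen and 0.00731% as fallen with DHA, and 0.0366% and 0.0585% with CCCP. For DHA the smallest adjusted p in this limma fit was 0.0873, shared by AARS (log2 1.46, SE 0.18), MARS (log2 1.48, SE 0.18), SARS (log2 1.30, SE 0.16) and YARS (log2 1.14, SE 0.14). At an unadjusted p under 0.05, 13 of 20 cytosolic and 0 of 15 mitochondrial genes were higher with DHA, where 5.51% of all genes were higher and 6.62% lower. With CCCP, 6 cytosolic genes and NARS2 were higher and none was lower at that level, where 6.88% of all genes were higher and 7.59% lower. The call depended on the setting: when genes under a mean of 5 FPKM were left out, limma gave adjusted p values of 0.026 to 0.0315 for 7 genes with DHA (AARS, CARS, GARS, MARS, SARS, WARS and YARS), which rose, and none for CCCP. Over the 6760 genes kept in that setting, 30 rose and 4 fell with DHA, and 29 rose and 60 fell with CCCP. With voom on recovered whole reads, 11 cytosolic genes passed for DHA and 3 for CCCP, and no mitochondrial gene passed for either. Over all 13678 genes, voom called 232 as risen and 301 as fallen with DHA, and 297 and 388 with CCCP.

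With both compounds, other genes around transfer RNA charging and translation had smaller median ratios than the cytosolic synthetases. Of 12 measured genes for amidation, formylation, selenocysteine, transfer RNA export and proofreading, with the synthetase-like gene TARSL2, 1 was at least 2-fold higher with both compounds, XPOT, the exporter of transfer RNA from the nucleus. Over all genes measured, 4.52% were at least 2-fold higher in this comparison. XPOT stood at 62.5 FPKM with both, 34.6 with DHA, 20.8 with CCCP and 20.3 in control, 3.08-fold (2.95 to 3.22) higher with both. QRSL1, a subunit of the mitochondrial amidation enzyme, and PSTK, a kinase of selenocysteine synthesis, stayed under the threshold with the pseudocount, at log2 ratios of 0.96 and 0.61, but were 2.13-fold (1.83 to 2.48) and 2.03-fold (1.47 to 2.83) higher in FPKM. The median log2 ratios of that list were 0.54 with both, 0.09 with DHA and 0.01 with CCCP. For 39 measured cytosolic translation factors they were 0.37, 0.26 and 0.16, with 3 genes 2-fold higher with both, and for 77 mitochondrial ribosomal proteins they were 0.13, 0.10 and -0.0029, with none. Whether the counts in these lists differ from the 4.52% of all genes was not tested.

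The reference list of ATF4 targets without synthetases had larger ratios in the same libraries. Of 27 measured genes, 22 were at least 2-fold higher with both compounds, 17 with DHA and 2 with CCCP, with median log2 ratios of 2.24, 1.14 and 0.36. Over all genes measured, 4.52%, 2.0% and 3.21% were at least 2-fold higher in the same 3 comparisons. The list includes ATF4 itself and was chosen with earlier results of these data known. The largest, among those averaging 5 FPKM or more, were the pseudokinase gene TRIB3 at 3.91, the cystine transporter gene SLC7A11 at 3.52, CTH, which makes cysteine, at 3.44, and DDIT3 at 3.40, all with both compounds against control. ATF4 itself stood at 342 FPKM with both compounds, 229 with DHA, 129 with CCCP and 104 in control. The same order over the 4 libraries was seen in 12 of 20 cytosolic synthetases, beside 6.95% of all genes. With equal totals it was seen in only 6 (AARS, CARS, GARS, LARS, SARS and YARS), beside 4.73% of all genes. The departures from additivity of this list had a median of 0.45, beside 0.37 for the cytosolic synthetases.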

How the data were processed

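The authors deposited 1 table of FPKM values per library, per the file headers (fragments per kilobase, adjusted for library size). Aligner, counting tool, build and annotation: not given in the sources used here. Per the labels' protocols, libraries came from total RNA with an Illumina TruSeq kit. All 58735 identifiers matched GENCODE 29 (GRCh38). FPKM multiplied by its summed exon lengths gave whole reads in 100% of values above 0, within 0.01 reads, and these served for depth, for exact Clopper-Pearson intervals of ratios, and for 1 alternative fit.

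Values were used as deposited, without rescaling. The 13678 genes reaching 1 FPKM in any library were compared on log2(FPKM + 0.5), and called at 2-fold. Where a fold has an interval, no pseudocount was added to it. The additive limma-trend fit used Benjamini-Hochberg adjustment over all those genes at 0.05 and was tested on simulated data. Members and lists were chosen with earlier results of these data known. Named were all members, the scaffold genes, 2-fold genes of the charging list and the 4 largest ratios of the ATF4 list among genes with a mean of 5 FPKM or more. ATF4, MRPS12, ZMAT2, QRSL1, PSTK and the matched promoters were named after their values were seen. Exons of 16 members overlap no other gene, and 14 pseudogenes named after members are listed at 0. Tools were Python 3.11.15 (numpy 2.4.6, pandas 2.3.3, scipy 1.17.1, matplotlib 3.10.9) and R 4.3.3 with limma 3.58.1.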

Additional observations from a re-analysis of the deposited data

Results flagged for a closer look

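In 4 genes, 1 compound's log2 ratio lay on opposite sides of 0 with and without the other compound, and both counting intervals excluded 1. The share of all genes that meet this rule was not computed. Of all 13678 genes, 8418 had the same sign in both comparisons for CCCP and 8581 for DHA. Over all genes, intervals with CCCP alone lay above 1 in 25.8% and below 1 in 25.8%. With CCCP added to DHA they did so in 26.6% and 26.6%. TARS was at 0.57 when CCCP was added to DHA and at -0.28 with CCCP alone. VARS was at 0.24 and -0.18 in the same 2 comparisons, and FARS2, on 122 to 190 reads, at -0.25 (with an upper bound that rounds to 1.0-fold) and 0.29. RARS was at 0.13 when DHA was added to CCCP and at -0.11 with DHA alone. These differences were not tested, since each group has 1 library.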

How the results depend on the processing

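No paired analysis was possible because each group has 1 library, and fits without 1 library were not run because they leave no residual degree of freedom. Counts of cytosolic genes 2-fold higher against control were the same under pseudocounts of 0.1 and 1, both filters and median of ratios. With equal totals the count with DHA was 5 instead of 6, without YARS (log2 0.95). Against control, single-gene log2 ratios of IARS, KARS, MARS, NARS and WARS with CCCP turned below 0 with equal totals, at -0.065, -0.015, -0.024, -0.11 and -0.0052. Over the alternatives the cytosolic median log2 ratio with both compounds ran from 0.93 to 0.97 and the mitochondrial one from 0.03 to 0.18.

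With equal totals the cytosolic medians became 0.40 with DHA, -0.053 with CCCP and 1.03 for both against CCCP, those of complex and free members with DHA became 0.17 and 0.66, and 2 cytosolic genes were 2-fold higher for both against DHA. The cytosolic departure from additivity became 0.54 while that of all genes became 0.16. When genes under a mean of 5 FPKM were left out, the cytosolic minus mitochondrial median was 0.94 for both against control and -0.057 for CCCP. At 1.5-fold, 4 complex members were called with both, 2 complex members and 1 mitochondrial gene with DHA, and 7 cytosolic genes for both against DHA. The share of all genes past 1.5-fold was not computed, so these counts have no background beside them.

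The additive fit depended most on the setting. For DHA, cytosolic genes that rose numbered 0 in the fit as reported, 11 without a filter, 7 with that mean filter, 10 with equal totals and 11 with voom on whole reads. For CCCP they numbered 4 without a filter and 3 with voom. Mitochondrial genes numbered 0 in each. Over all genes with DHA, 13 rose and 1 fell as reported, against 424 and 577 without a filter (where limma warned of zero variances), 30 and 4 with the mean filter, 178 and 226 with equal totals, 232 and 301 with voom, 0 and 0 without trend, and 2 and 0 that fell with pseudocounts of 0.1 and 1. With CCCP, 5 rose and 8 fell as reported, against 474 and 523, 29 and 60, 185 and 323, 297 and 388, and 0 and 0 in the same settings, 8 and 15 with median of ratios, 8 and 16 with a pseudocount of 1, and 15 that fell with a pseudocount of 0.1. The cause was not tested. Depth limits FARS2, PARS2 and SARS2, whose counting intervals are the widest.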
